A study of Mus musculus with 28 samples.

Results

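The genes described here are the cytosolic sensors of viral RNA and proteins that work beside them. They are Ddx58, Ifih1 and Dhx58, which encode the RNA helicases RIG-I, MDA5 and LGP2, their adaptor Mavs, the RNA-activated kinase Eif2ak2, the RNA-editing enzyme Adar and the nucleic acid sensor Zbp1. They were taken by name and not by level, as every row of the deposited tables that carries any of these 7 names. Of the 7 genes, 6 had a row among the 3147 genes of the RNA table, and all 7 had one among the 6250 genes of the ribosome footprint table. RNA of Zbp1 was not analysed here.

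RIG-I and MDA5 bind viral double-stranded RNA in the cytosol and pass the signal to MAVS on mitochondria, which leads to type I interferon, and LGP2 binds such RNA without signalling itself and tunes the other helicases. PKR, the product of Eif2ak2, is switched on by double-stranded RNA and then phosphorylates the initiation factor eIF2, which slows translation. ADAR1, the product of Adar, converts adenosine to inosine in double-stranded RNA, and this editing keeps the cell's own RNA from being read as foreign by MDA5, PKR and ZBP1. Several of these genes are also interferon-stimulated, so that a cell with little viral RNA in sight can still make more sensor once interferon reaches it.

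Bone marrow of female C57BL/6J mice aged 6 to 8 weeks was cultured with GM-CSF at 20 ng per ml to obtain dendritic cells, the professional antigen-presenting cells, a method that gives mixed cultures of loosely adherent myeloid cells. On day 9 of culture they received lipopolysaccharide (LPS) from E. coli K12 at 100 ng per ml, which is sensed by Tlr4 at the cell surface and in endosomes, or were mock-stimulated, that is, left without a stimulus. No group carried an engineered allele, and per the series' design text the medium was exchanged for one with labelled amino acids at time 0 in both arms. That text also describes mixing aliquots with unlabelled reference cells for normalization and does not say whether RNA was taken before this step. Polyadenylated RNA was sequenced at 0 h and at 1, 2, 4, 6, 9 and 12 h in each arm, which gave 13 groups of 2 libraries, and ribosome footprints, the mRNA fragments that ribosomes protect from nuclease, were sequenced in 2 libraries of unstimulated cells. The labels do not say whether the 2 libraries of a group came from separate cultures or mice, nor whether mice were pooled, so the p-values reflect variation among these samples alone, and that variation may be technical.

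Values were deposited in TPM, a level per transcript length in which every library sums to 1000000 over the listed genes, so read depth is unknown and precision rests on the spread of 2 libraries. The median gene stood at 57.3 to 78.8 TPM across the 26 RNA libraries, and how the listed genes were chosen is not given in the sources used here. Of 12 dendritic cell markers 4 were listed (Cd74, H2-Aa, H2-Ab1 and Itgax), led by Cd74, the invariant chain of MHC class II, and their summed level was 9658 to 19758 TPM at 0 h, 8910 to 18635 in the mock libraries and 7244 to 20965 with LPS. None of the 4 was called at the late times in limma, with 0 at an unadjusted p under 0.05, while 2 rose after median-ratio rescaling and 1 rose and 1 fell with the replicate number as a block. Macrophage or monocyte markers (7 of 11 listed, led by Lyz2, lysozyme) summed to 11174 to 43069 TPM in the mock and 8106 to 39699 in the LPS libraries, where 3 rose and 2 fell late. Neutrophil markers (7 of 13 listed, led by S100a9, a calprotectin subunit) summed to 2492 to 11097 and 1165 to 8678 TPM, where 1 rose and 2 fell. Of all genes 15.5% were called higher late and 47.7% lower. Median-ratio rescaling left 3 macrophage or monocyte markers higher and 1 lower, and 1 neutrophil marker higher and 1 lower. All-gene counts were then 825 higher and 816 lower of 3147. Quantile normalization gave 3 higher and 3 lower for the macrophage or monocyte list, 1 and 2 for neutrophils, and 701 and 977 for all genes. Under the replicate-number block these counts were 3 and 2, 1 and 3, and 585 and 1815. No marker of mast cells, B cells, T cells, NK cells or erythroid cells was listed, and the only listed marker of plasmacytoid dendritic cells, Bst2, is itself induced by interferon. The part of these other cells in the results below was not tested, and in bulk RNA fewer cells of a type and less RNA per cell cannot be told apart.

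The promoters are shown first, because 5 of the genes rose with LPS, though not all at the same times. Interferon-regulated genes often carry binding sites for IRF and STAT factors near their start. The RefSeq table used here (build GRCm38.p6) held windows of 300 bases, from 250 before to 50 after an annotated start, for 5 of the 7 genes, 7 windows in all with 3 for Adar, matched by gene name because the authors' build was mm9. Capitals mark 2 motifs found on either strand. The first is the core of the interferon-stimulated response element, GAAA, 2 bases of any kind and GAAA again, and the second is the shorter IRF core AANNGAAA, which overlaps the first. Windows are written 5′ to 3′ on the gene's own strand.
Ddx58, chr4:40239776-40240075, minus strand: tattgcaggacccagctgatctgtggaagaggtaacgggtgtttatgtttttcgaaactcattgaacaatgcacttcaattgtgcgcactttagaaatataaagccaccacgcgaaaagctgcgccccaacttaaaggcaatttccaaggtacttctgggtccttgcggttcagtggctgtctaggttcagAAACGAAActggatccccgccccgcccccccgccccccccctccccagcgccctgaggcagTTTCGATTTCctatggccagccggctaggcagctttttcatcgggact
Ifih1, chr2:62646206-62646505, minus strand: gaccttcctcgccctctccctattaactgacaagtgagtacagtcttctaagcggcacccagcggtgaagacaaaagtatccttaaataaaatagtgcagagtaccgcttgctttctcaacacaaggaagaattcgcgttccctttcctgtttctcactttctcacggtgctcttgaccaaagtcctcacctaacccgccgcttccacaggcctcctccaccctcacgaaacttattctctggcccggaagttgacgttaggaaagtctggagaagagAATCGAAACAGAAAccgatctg
Eif2ak2, chr17:78882523-78882822, minus strand: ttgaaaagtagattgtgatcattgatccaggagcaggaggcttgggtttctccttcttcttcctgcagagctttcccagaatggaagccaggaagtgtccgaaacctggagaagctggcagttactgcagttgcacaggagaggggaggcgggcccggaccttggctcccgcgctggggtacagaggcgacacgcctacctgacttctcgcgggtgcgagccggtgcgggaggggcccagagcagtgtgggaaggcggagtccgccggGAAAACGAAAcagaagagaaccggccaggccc
Adar, most downstream start, chr3:89730468-89730767, plus strand: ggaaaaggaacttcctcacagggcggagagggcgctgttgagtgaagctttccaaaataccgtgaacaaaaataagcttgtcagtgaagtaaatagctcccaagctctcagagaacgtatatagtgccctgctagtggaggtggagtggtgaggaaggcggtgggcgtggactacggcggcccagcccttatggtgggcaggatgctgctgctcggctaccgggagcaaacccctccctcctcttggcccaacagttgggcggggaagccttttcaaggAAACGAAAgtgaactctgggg
Mavs, chr2:131233813-131234112, plus strand: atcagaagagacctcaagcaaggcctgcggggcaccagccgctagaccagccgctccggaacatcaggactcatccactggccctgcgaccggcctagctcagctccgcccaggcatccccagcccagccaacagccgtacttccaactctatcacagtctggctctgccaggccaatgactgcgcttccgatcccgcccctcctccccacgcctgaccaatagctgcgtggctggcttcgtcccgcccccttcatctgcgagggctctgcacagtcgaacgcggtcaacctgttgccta

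The response element core lay just downstream of the start in Ddx58 (bases 3 to 12 after the start, read on the opposite strand), Ifih1 (33 to 42) and Eif2ak2 (19 to 28). It occurred in 3.43% of the 32817 promoter windows of the table. The IRF core was added after the promoter letters were seen, so its matches carry no weight of their own. It is held by 23.9% of the windows and was also found at 30 to 37 bases in the most downstream Adar window. There the letters TTCNNNGAA of a STAT dimer site (8.29% of windows) overlap it at 23 to 31. Both other Adar windows held none of these motifs. A STAT dimer match also lay upstream of Eif2ak2, 178 to 170 bases before the start. The Mavs window held neither IRF-type core, no STAT dimer match and no NF-kB site, the last found in 8.46% of windows. These matches describe letters and do not show binding. Windows of Dhx58 and Zbp1 were not used here.

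Before stimulation the genes stood at low to moderate levels, and Eif2ak2 was the most abundant. At 0 h its RNA stood at 51.1 and 98.1 TPM in the 2 libraries, above every library of the other genes. Adar (31.2 and 24.4 TPM) lay above Ddx58 (21.6 TPM in both), and Mavs (40.0 and 14.3 TPM) overlapped both and could not be placed between them. Ifih1 followed at 10.9 and 12.7 TPM and Dhx58 at 10.6 and 5.43 TPM, and these were the lowest of the 6. After 6 h of LPS the order was another. Ifih1 then stood at 507 ± 0.62 TPM (SD, n = 2), above Eif2ak2 at 340.2 ± 74.5, Ddx58 at 330.9 ± 40.6 and Dhx58 at 281 ± 41.5, whose neighbouring ranges overlapped, while Adar (148 ± 6.39) and Mavs (8.17 ± 0.01) stood below them without overlap. By 12 h the ranges of Eif2ak2, Ddx58, Dhx58 and Ifih1 each overlapped the next again.

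**Figure D1:**
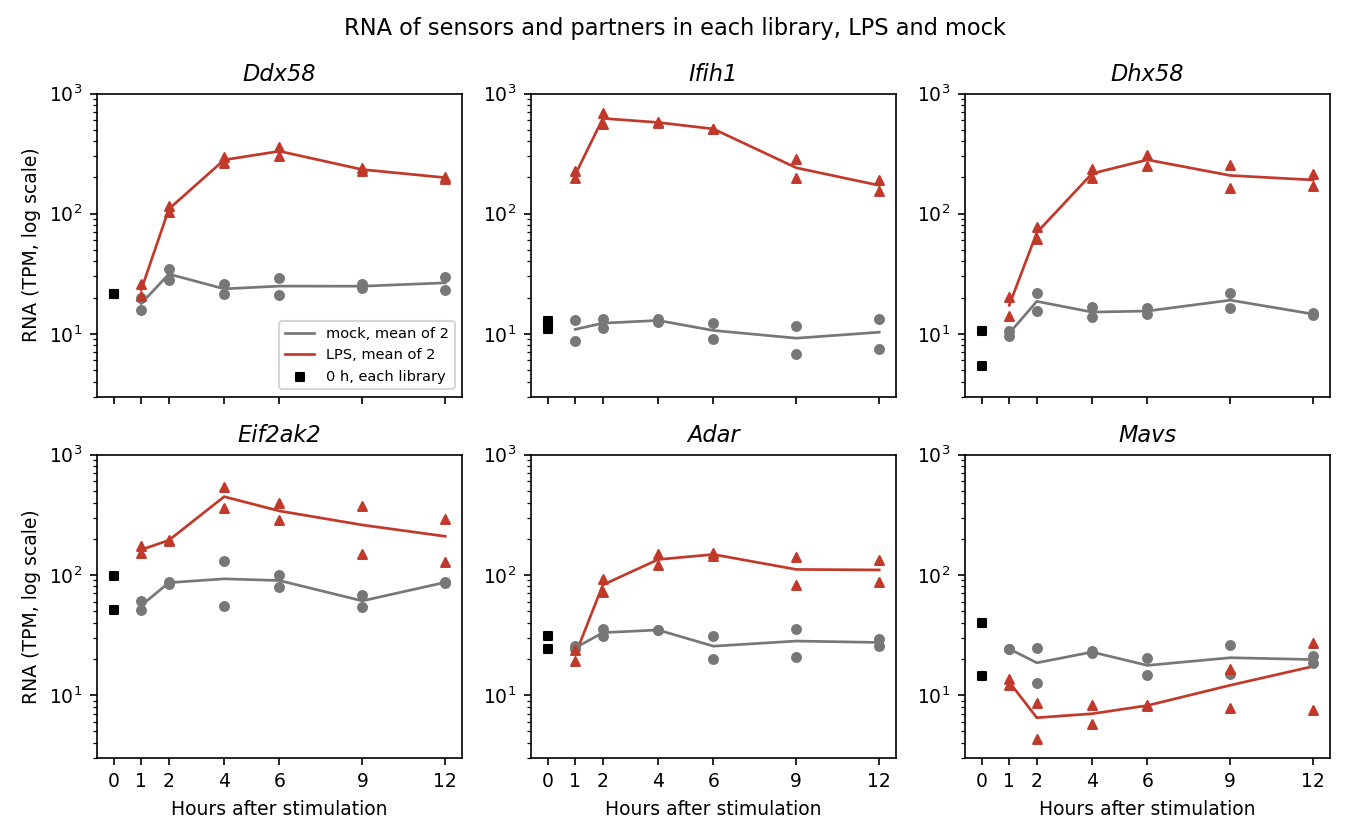
RNA level in TPM (log axis) against hours after stimulation for 6 genes, with each library as a point (triangles LPS, circles mock, squares 0 h) and lines through the means of 2. The LPS libraries of Ifih1 lie above 150 TPM at all 6 times against at most 13.3 TPM in the mock libraries, and those of Mavs lie below the mock libraries from 1 h to 6 h.

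Ifih1 was already high at 1 h and reached the largest fold change of the 6. Its 12 mock libraries ran from 6.84 through a median of 11.9 to 13.3 TPM. With LPS it stood at 225 and 196 TPM at 1 h, at 554 and 687 TPM at 2 h, at 567 and 582 TPM at 4 h and at 507 and 508 TPM at 6 h, then at 285 and 197 TPM at 9 h and 189 and 155 TPM at 12 h. Every LPS library therefore lay above every mock library, a separation found for 2.92% of all genes. The log2 fold change of LPS over mock, on the log2(TPM + 1) scale that understates changes of low genes, was 4.18 ± 0.28 (SE) at 1 h, an 18.1-fold difference (limma, adjusted p = 8.42e-08). It was 5.55 ± 0.28 at 2 h, a 46.7-fold difference, and 3.97 ± 0.28 at 12 h (adjusted p = 2.01e-09 and 1.51e-08). Ifih1 was the only 1 of the 6 genes past the threshold at 1 h, when 3.27% of all genes were called higher.

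Ddx58 rose later. It stood at 15.8 to 34.6 TPM in the mock libraries, with a median of 24.9. At 1 h of LPS it stood at 20.5 and 26.1 TPM against 15.8 and 20.0 in mock cells. Both lay above the mock pair, as in 23.5% of all genes, but the difference did not pass the test (log2 0.37 ± 0.20, adjusted p = 0.354). At 2 h it stood at 116 and 103 TPM, at 4 h at 266 and 295 TPM and at 6 h at 302 and 359.7 TPM. Its level at 9 h was 228 and 238 TPM and at 12 h 196 and 203 TPM. The log2 fold change was 1.77 ± 0.20 at 2 h, 3.51 ± 0.20 at 4 h and 3.69 ± 0.20 at 6 h, the last a 12.9-fold difference (limma, adjusted p = 8.25e-06, 1.26e-09 and 6.49e-10).

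Dhx58 followed the time course of Ddx58 from a lower base. Its mock libraries ran from 9.66 through a median of 15.3 to 21.8 TPM. With LPS it stood at 14.2 and 20.4 TPM at 1 h, 78.2 and 61.0 TPM at 2 h, 234 and 197 TPM at 4 h and 310.2 and 251 TPM at 6 h, and then at 252 and 164 TPM at 9 h and 213 and 169 TPM at 12 h. At every time both LPS libraries lay above both mock libraries of that time, as also for Ddx58, while the share of all genes that did so was 23.5%, 18.8%, 15.5%, 18.7%, 15.6% and 19.1% from 1 h to 12 h. The difference passed the test from 2 h (log2 1.85 ± 0.29, adjusted p = 2.59e-04) and was largest at 6 h, at 4.09 ± 0.29 or 17.0-fold (limma, adjusted p = 1.21e-08). At 1 h it was 0.70 ± 0.29 (adjusted p = 0.202).

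**Figure D2:**
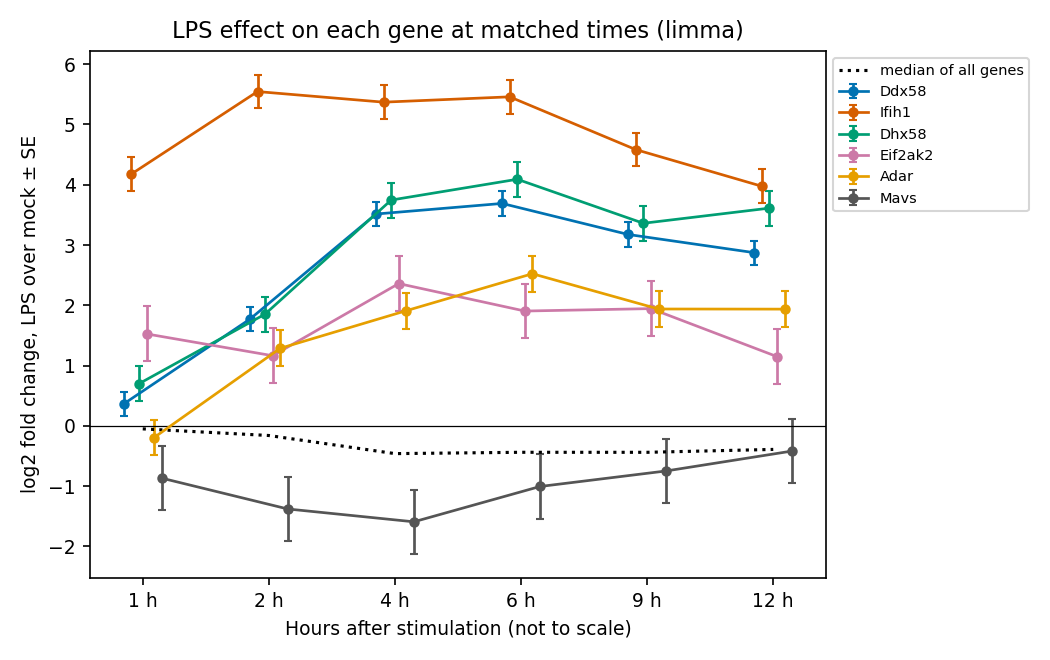
Log2 fold change of LPS over mock (limma, log2(TPM + 1) scale) at each matched time for 6 genes, with standard errors as bars, and the median of all 3147 genes as a dotted line. Ifih1 starts at 4.18 at 1 h, Ddx58 and Dhx58 climb to 3.69 and 4.09 at 6 h, and Mavs lies below 0 at all 6 times, although after quantile normalization it lies above 0 at 9 h and 12 h.

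The adaptor Mavs did not rise with its sensors. It stood at 24.1 and 24.3 TPM in mock cells at 1 h against 12.0 and 13.7 TPM with LPS. At 2 h the pairs were 24.5 and 12.6 TPM against 8.62 and 4.32, at 4 h 22.5 and 23.1 against 8.23 and 5.74, and at 6 h 20.5 and 14.8 against 8.18 and 8.16. Both LPS libraries lay below both mock libraries at these 4 times, as they did for 25.3%, 35.4%, 58.2% and 50.4% of all genes. The pairs overlapped at 9 h (25.95 and 14.9 against 16.4 and 7.75 TPM) and at 12 h (18.5 and 21.0 against 27.1 and 7.53 TPM). The fall passed the test at 4 h, at -1.59 ± 0.53 (limma, adjusted p = 0.0264), when 29.2% of all genes were called lower. With the replicate number as a block it also passed at 2 h (-1.38, adjusted p = 0.015) and 6 h (-1.01, adjusted p = 0.0371). At 9 h and 12 h the values of -0.75 and -0.42 turned to 0.013 and 0.21 after quantile normalization, and the 12 h value was 0.44 without replicate 2 of the LPS cells of that time. Averaged over 1 h and 2 h the difference was -1.12 ± 0.38 (adjusted p = 0.048), the 38th lowest of 3147 genes, and averaged over 6 h, 9 h and 12 h it was -0.72 ± 0.31 (adjusted p = 0.0493). Of all genes 9.72% were called lower early and 47.7% late.

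The calls on Mavs were the least secure. The median of all genes also shifted down with LPS, by 0.46 at 4 h and by 0.43 over the late times on the log2 scale, and relative to that median Mavs stood at -1.13 and -0.29. After each library was rescaled by median ratios, the value at 4 h was -1.18 (limma, adjusted p = 0.105) and the late value -0.35 (adjusted p = 0.354), and after quantile normalization -0.71 (adjusted p = 0.298) and -0.01 (adjusted p = 0.98). The early call was lost after median-ratio rescaling (-1.04, limma adjusted p = 0.061) and with log2(TPM + 5) (-0.86, adjusted p = 0.0529), but not after quantile normalization. The late call was also lost with log2(TPM + 5) (-0.55, adjusted p = 0.0571) and in a fit to only the groups compared (-0.72, adjusted p = 0.073). Of the 26 fits that each left out 1 library, 3 lost the call at 4 h, namely without replicate 1 or 2 of the 4 h mock cells or replicate 2 of the 4 h LPS cells (adjusted p = 0.093, 0.0943 and 0.15). The early call was lost in 18 and the late call in 17, with values down to -0.90 (adjusted p = 0.184, without replicate 1 of the 2 h mock cells) and -0.44 (adjusted p = 0.189, without replicate 2 of the 12 h LPS cells).

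Eif2ak2, the kinase gene, rose from the highest base and spread widely within pairs of libraries. Its 12 mock libraries ran from 50.9 through a median of 81.6 to 131 TPM. With LPS it stood at 173 and 151 TPM at 1 h, 191 and 197 TPM at 2 h, 359 and 536 TPM at 4 h and 288 and 393 TPM at 6 h, and then at 149 and 371 TPM at 9 h and 129 and 289.6 TPM at 12 h. The LPS pair lay above the mock pair at all 6 times, although replicate 1 at 12 h lay below the highest mock library of another time. At single times 15.5% to 23.5% of all genes had the LPS pair above. The log2 fold change was already 1.53 ± 0.46 at 1 h without passing the test (limma, adjusted p = 0.066). It passed at 4 h at 2.36 ± 0.46, a 5.13-fold difference (adjusted p = 6.64e-04), at 6 h (1.90 ± 0.46, adjusted p = 0.00307) and at 9 h (1.94 ± 0.46, adjusted p = 0.00289), and missed it at 12 h (1.15 ± 0.46, adjusted p = 0.0577). Without replicate 2 of the 9 h LPS cells the 9 h value was 1.29 (adjusted p = 0.0565). The 1 h difference passed when either 9 h LPS library was left out (adjusted p = 0.0433 in both fits), and the 12 h difference passed in 5 of the 26 fits without 1 library, namely without replicate 1 or 2 of the 4 h mock cells (adjusted p = 0.0412 in both), replicate 1 or 2 of the 9 h LPS cells (0.0342 and 0.0343) or replicate 1 of the 12 h LPS cells, where it was 1.73 (0.02). It also passed after median-ratio rescaling (1.52, adjusted p = 0.0204) and quantile normalization (1.27, adjusted p = 0.0425). With the replicate number as a block, the differences at 1 h, 2 h and 12 h all passed (adjusted p = 0.0145, 0.0346 and 0.0198), where that at 2 h was 1.16 ± 0.46 (adjusted p = 0.105 without the block).

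Adar, whose gene-level value joins a long form made from an interferon-inducible start with a shorter form made all the time, rose from 2 h on. At 1 h it stood at 23.8 and 19.3 TPM with LPS, just below the mock pair of 25.4 and 23.9. It then stood at 93.0 and 71.96 TPM at 2 h against 35.3 and 30.8, at 148 and 120.4 TPM at 4 h against 34.9 and 34.6, and at 152 and 143 TPM at 6 h against 31.1 and 19.9. The pairs at 9 h were 139.9 and 82.0 against 35.4 and 20.9 TPM, and at 12 h 133 and 86.9 against 29.0 and 25.7 TPM. LPS and mock pairs did not overlap at any of the 6 times, with the order turned at 1 h. Of all genes 25.3% had the LPS pair below at 1 h, and 15.5% to 19.1% had it above at single times from 2 h to 12 h. The log2 fold change was -0.19 ± 0.30 at 1 h, 1.29 ± 0.30 at 2 h and 2.52 ± 0.30 at 6 h, the last a 5.75-fold difference (limma, adjusted p = 0.77, 0.00687 and 4.55e-06). The 2 h call was lost without replicate 2 of the mock cells (1.19, adjusted p = 0.0638) or replicate 1 of the LPS cells (1.10, adjusted p = 0.0792) of that time.

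In counts, 4 of the 6 genes passed at 2 h, all higher (6.39% of all genes were called higher), and at 4 h 5 rose and 1 fell (8.74% of all genes higher). At 6 h and 9 h 5 of 6 rose (11.2% and 10.1% of all genes) and at 12 h 4 of 6 (10.0% of all genes). With the replicate number as a block 2 were called at 1 h, and the all-gene counts of higher calls went from 103 to 352 at 1 h, from 201 to 346 at 2 h and from 264 to 447 early, those of lower calls from 306 to 611 early and from 918 to 1414 at 4 h. Averaged over the late times 5 rose and 1 fell, against 15.5% and 47.7% of all genes, a split of 487 and 1502 genes. Median-ratio rescaling made it 825 and 816, and with quantile normalization it was 701 and 977. The 5 that rose were called under both rescalings, and Mavs under neither. Relative to the median of all genes, the late effects were 5.11 for Ifih1, 4.12 for Dhx58, 3.68 for Ddx58, 2.57 for Adar and 2.10 for Eif2ak2. All 6 passed the joint test over the 6 times, which 57.2% of genes did, with Mavs closest to the threshold (adjusted p = 0.0214) but not called after median-ratio rescaling (0.106), after quantile normalization (0.181) or without replicate 2 of the 4 h LPS cells (0.0558). In the mock arm none of the 6 differed from 0 h in limma, with 1 at an unadjusted p under 0.05, and the closest was Dhx58 at 0.90 ± 0.22 (adjusted p = 0.9997, with 0.0318% of all genes called higher).

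The genes divided by timing in tests of each gene by itself, and no test compared this timing between genes. The late effect (mean of 6 h, 9 h and 12 h) exceeded the early effect (mean of 1 h and 2 h) for Dhx58 by 2.41 ± 0.26, for Ddx58 by 2.18 ± 0.18 and for Adar by 1.59 ± 0.27 (limma, adjusted p = 4.77e-06, 3.73e-07 and 3.34e-04), as it did for 8.17% of all genes. For Ifih1 the difference was -0.19 ± 0.26 (0.13 after median-ratio rescaling), with an early effect of 4.86 ± 0.20 and a late effect of 4.67 ± 0.16, and for Eif2ak2 it was 0.32 ± 0.42 (adjusted p = 0.606 and 0.59). Early effects of the later genes were 1.28 ± 0.20 for Dhx58, 1.07 ± 0.14 for Ddx58 and 0.55 ± 0.21 for Adar, the last without passing the test (adjusted p = 0.0837). Adar passed early after median-ratio rescaling (0.63, adjusted p = 0.0372), after quantile normalization (0.62, adjusted p = 0.0356) and with the replicate number as a block (0.55, adjusted p = 0.00535). Early, 4 of the 6 were called higher, against 8.39% of all genes, which is 264 of 3147. Under each of these 3 settings 5 of the 6 were, while 313, 300 and 447 of the 3147 genes were called higher, in the same order. Ifih1 ranked 11th of 3147 genes in its early effect and 17th in its late one, whereas Ddx58 went from 149th to 46th and Dhx58 from 101st to 37th.

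Steps within the LPS arm put times on this division. From 1 h to 2 h Ddx58 rose by a log2 of 2.19 ± 0.20, Dhx58 by 1.96 ± 0.29, Adar by 1.88 ± 0.30 and Ifih1 by 1.55 ± 0.28 (limma, adjusted p from 2.06e-06 to 0.00291, with 2.22% of all genes called higher). Between 2 h and 4 h the step passed for Dhx58 (1.62 ± 0.29) and Ddx58 (1.35 ± 0.20), with 3.15% of all genes called higher. With the replicate number as a block it also passed for Eif2ak2 (1.17, adjusted p = 0.0387) and Adar (0.70, adjusted p = 0.014), and for Adar after median-ratio rescaling (0.95, adjusted p = 0.0437). For Ifih1 this step was -0.10 ± 0.28 (0.14 after median-ratio rescaling, and 0.051 without replicate 2 of the 2 h LPS cells). No gene of the 6 passed from 4 h to 6 h in limma, where 0 had an unadjusted p under 0.05 and 0.35% of all genes were called in either direction. From 6 h to 12 h Ifih1 fell by 1.56 ± 0.28 (adjusted p = 0.0023) and Ddx58 by 0.72 ± 0.20 (adjusted p = 0.0334), while 3.02% of all genes were called lower. The Ddx58 fall was lost without any of the 4 libraries compared (adjusted p = 0.0768 and 0.274 without replicate 1 or 2 of the 6 h cells, 0.151 and 0.121 without replicate 1 or 2 of the 12 h cells). The decline of the LPS effect itself from 6 h to 12 h passed for none of the 6 in limma, with 2 at an unadjusted p under 0.05 and 1.81% of all genes called in either direction, and for Ifih1 it was -1.48 ± 0.40 (adjusted p = 0.075). That value passed with the replicate number as a block (adjusted p = 0.0167), with log2(TPM + 5) (-1.49, adjusted p = 0.025) and without replicate 1 of the 12 h mock cells (-1.86, adjusted p = 0.0423). Under the block the all-gene counts behind these steps rose from 70 to 148 (1 h to 2 h), from 99 to 186 (2 h to 4 h), from 11 to 62 (4 h to 6 h) and from 95 to 269 (lower, 6 h to 12 h), and from 57 to 204 for the decline of the effect.

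**Figure D3:**
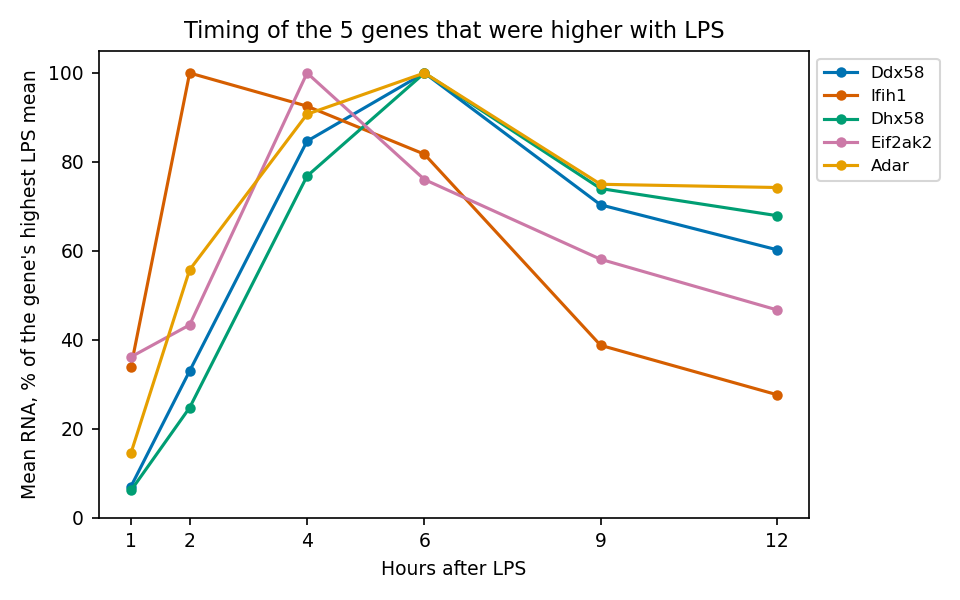
Mean RNA of 2 LPS libraries at each time as a percentage of the gene's own highest LPS mean, against hours after LPS, for the 5 genes that were higher with LPS. Ifih1 is at 34.0% by 1 h, peaks at 2 h and is at 27.7% by 12 h, whereas Ddx58 and Dhx58 are at 7.04% and 6.15% by 1 h and still at 60.3% and 67.9% by 12 h.

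As a share of its own peak mean, Ifih1 was at 81.7% at 6 h and 38.8% at 9 h, while Adar at 12 h remained at 74.3% and Eif2ak2 at 46.8%. Ifih1 peaked at 2 h, Eif2ak2 at 4 h and Ddx58, Dhx58 and Adar at 6 h.

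Sizes of the late effect were compared between genes within the same libraries, by an exact two-sided permutation test that exchanged LPS and mock labels within each late time over every arrangement, with 0.00926 as the smallest possible exact p, with p-values adjusted over the 15 pairs. In 13 pairs the effects differed. Ifih1 exceeded Ddx58 by a log2 of 1.43 in 6 of 6 comparisons of libraries of the same time and number (exact permutation adjusted p = 0.0116) and Dhx58 by 0.98 in 5 of 6 (exact permutation adjusted p = 0.032). That difference was 0.85 without replicate 1 of the 12 h mock cells (exact permutation adjusted p = 0.0534), and with exchanges kept within the replicate-number block the exact permutation adjusted p was 0.0721. Ddx58 exceeded Adar by 1.11 and Eif2ak2 by 1.58 (exact permutation adjusted p = 0.0116 for both). Mavs lay below each other gene, by 2.39 against Eif2ak2 and by 5.40 against Ifih1 (exact permutation adjusted p = 0.0116 for both). The pair Ddx58 and Dhx58 was not told apart (-0.44, with -0.40, -0.19 and -0.74 at 6 h, 9 h and 12 h; exact permutation adjusted p = 0.0794, and -0.56 with 0.0397 without replicate 2 of the 9 h LPS cells), nor was the pair Eif2ak2 and Adar (-0.47, with -0.62, 0.01 and -0.79; exact permutation adjusted p = 0.38).

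Over the 26 RNA libraries, which share culture, stimulus and time, the profiles of Ddx58 and Dhx58 were the most alike of the 15 pairs (Pearson r of log2(TPM + 1) 0.98), followed by Ddx58 and Adar (0.96) and Dhx58 and Adar (0.95). Ifih1 and Eif2ak2 correlated at 0.87, and Mavs was negatively correlated with each other gene, from -0.54 with Adar to -0.84 with Eif2ak2. Among all genes, the 3 nearest to Ddx58 were Tap1, a peptide transporter of antigen presentation (0.99), the ADP-ribosyltransferase family gene Parp9 (0.99) and the interferon-inducible Pyhin1 (0.99). Nearest to Dhx58 were Xaf1 (0.99), Tap1 (0.98) and Ifit2, an interferon-induced antiviral gene (0.98), and nearest to Adar were the GTPase gene Irgm2, Parp12 and Pml, the organiser of nuclear bodies (each 0.98).

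Ifih1 had other company. Its 3 nearest genes were Sbds, which acts in ribosome maturation (0.99), Marcksl1 (0.98) and Lztfl1 (0.97). Because they were picked by correlation over these same libraries, a time course like that of Ifih1 follows from the choice and is a description only. The early and late log2 effects were 2.13 ± 0.13 and 2.03 ± 0.11 for Sbds, 2.89 ± 0.21 and 2.66 ± 0.17 for Marcksl1, and 1.58 ± 0.15 and 1.31 ± 0.13 for Lztfl1. For Tap1 the same effects were 0.60 ± 0.11 and 2.65 ± 0.09. Nearest to Eif2ak2 were the translation factor gene Denr (0.94), Znfx1 (0.93) and the metalloproteinase gene Mmp14 (0.93), and nearest to Mavs were Pacs2 (0.93), Vps26b (0.92) and Dscr3 (0.89), where the last 2 take part in endosomal sorting.

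Other genes of the same pathways were counted from lists written from general knowledge, without the genes above. The lists share genes, so their counts are not separate. Dhx15, Ddx1, Ddx21 and the row of Ddx3x, all called lower late, count in both the RIG-I-like receptor and the helicase list. Prkra counts in both the eIF2 kinase and the double-stranded RNA list, and Tradd in both the RIG-I-like receptor and the Zbp1 list. Of 36 genes of RIG-I-like receptor signalling 20 were measured, and at the late times 9 rose and 8 fell, with a median of 0.11, against 15.5%, 47.7% and -0.43 for all genes. After median-ratio rescaling 10 rose and 5 fell, against 825 and 816 of all 3147 genes. Isg15, a ubiquitin-like modifier attached to many antiviral proteins, rose most, from 58.4 to 92.2 TPM in the late mock libraries to 6218 to 10107 TPM with LPS (log2 6.66 ± 0.19, limma adjusted p = 1.05e-13). Trim25, the ubiquitin ligase that helps activate RIG-I, rose by 2.28 ± 0.13 and Tank, a scaffold of the TBK1 kinase, by 2.16 ± 0.20. Kinase genes downstream of Mavs also rose, Ikbke by 1.63 ± 0.12 and Tbk1 by 1.27 ± 0.24. Tmem173, which encodes the DNA-sensing adaptor STING, and Nlrx1, a mitochondrial inhibitor of MAVS, fell by 1.00 ± 0.20 and 1.01 ± 0.15, the latter without a call after quantile normalization (adjusted p = 0.0522). The list's most abundant gene was Ywhae, which encodes an adaptor protein that carries RIG-I to MAVS (0.24 ± 0.10, adjusted p = 0.0453, and 0.271 after quantile normalization). Irf3, the transcription factor activated through MAVS, stood at -0.42 ± 0.27 (adjusted p = 0.184). Ikbke, Tbk1, Tmem173, Nlrx1, Irf3 and, below, Stau1 and Ripk3 were chosen for mention after their values were seen.

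Around PKR, 12 of 22 listed genes of the eIF2 kinase pathway were measured. At the late times 1 rose and 6 fell with a median of -0.66, where 15.5% of all genes rose and 47.7% fell with a median of -0.43. After median-ratio rescaling 2 rose and 5 fell, against 825 and 816 of all 3147 genes. The row of Ppp1cb, a catalytic subunit of protein phosphatase 1, rose by 1.10 ± 0.24, and its paralog Ppp1cc fell by 1.48 ± 0.14. Prkra, which encodes the PKR activator PACT, stood at 42.0 to 53.9 TPM in the late mock libraries and at 11.4 to 30.0 TPM with LPS (log2 -1.41 ± 0.18, limma adjusted p = 2.83e-06). The most abundant gene was Eif2s2, the beta subunit of the PKR substrate eIF2, at -0.20 ± 0.30 (adjusted p = 0.576).

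Among 19 listed genes of double-stranded RNA binding and editing other than Adar and Eif2ak2, 9 were measured, of which 1 rose and 5 fell late (median -0.42), near the 47.7% lower and the median of -0.43 of all genes. After median-ratio rescaling 1 rose and 2 fell, against 825 and 816 of all 3147 genes. Dicer1, the nuclease that makes small RNAs, fell by 1.02 ± 0.39 (adjusted p = 0.0328, and 0.215 after median-ratio rescaling), and Aimp2, a scaffold of the tRNA synthetase complex, by 1.29 ± 0.26. The most abundant, Ilf2, fell by 0.77 ± 0.23 (adjusted p = 0.00753, and 0.212 after that rescaling). The gene that rose was Stau1, which binds structured mRNA (0.66 ± 0.11). Oligoadenylate synthetases sense double-stranded RNA and answer with a second messenger. They and the related gene Oasl1 were among 5 measured genes of a list of 10. Late, 3 of the 5 rose and 2 fell with a median of 3.41, against -0.43 for all genes. After median-ratio rescaling 3 rose and 1 fell, against 825 and 816 of all 3147 genes. Oasl1 rose from 1.37 to 7.03 TPM in late mock libraries to 1191 to 1703 TPM (log2 8.02 ± 0.29), Oas3 by 4.56 ± 0.16 and the joint row of the near-identical copies Oas1g and Oas1a by 3.41 ± 0.26.

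**Figure D4:**
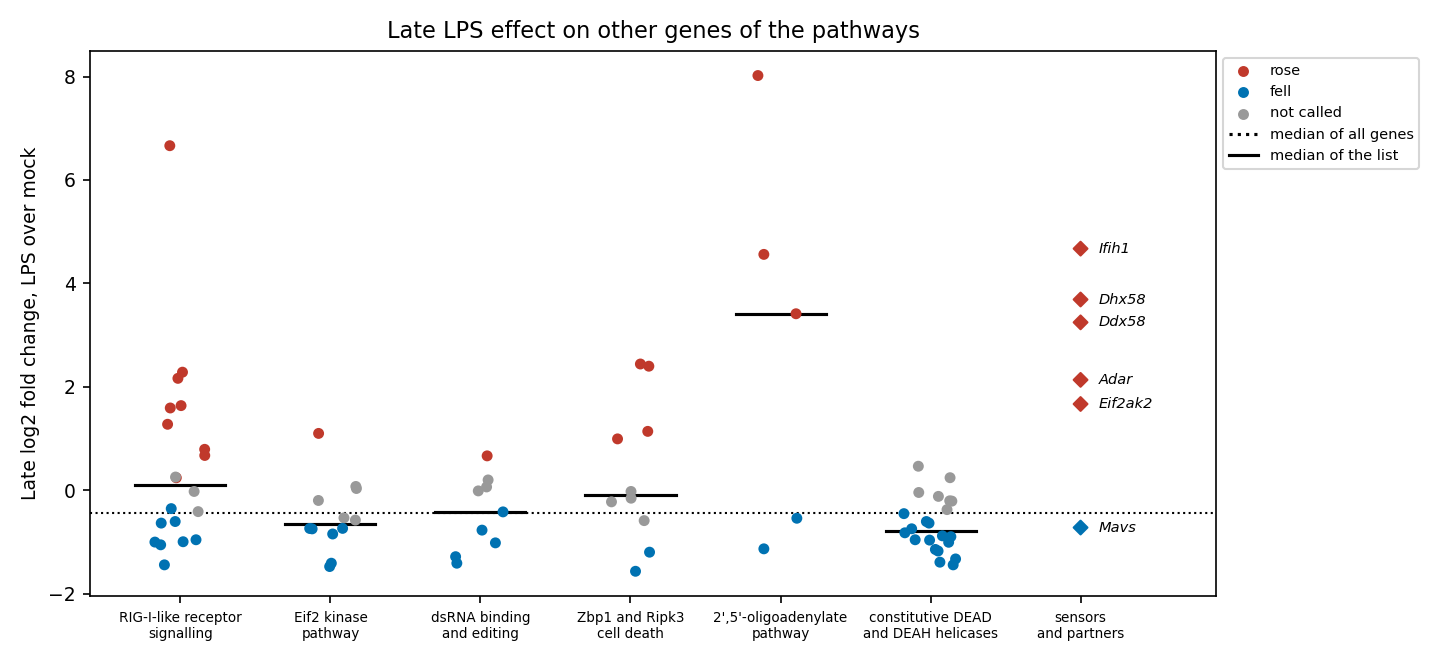
Late log2 fold change of LPS over mock for each gene reported of 6 pathway lists (points, coloured by call), with each list's median as a bar, the median of all genes as a dotted line, and the 6 sensors and partners as diamonds in the same colours at the right. Genes shared between lists are drawn in each of them. No constitutive helicase was called higher, whereas the sensor helicases Ifih1, Dhx58 and Ddx58 stand at 4.67, 3.69 and 3.25. Constitutive helicases called higher were 2 after median-ratio rescaling, 1 after quantile normalization and 1 with the replicate number as a block.

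Helicases of the DEAD and DEAH families with constitutive roles in RNA processing were counted as well. Of 42 listed 22 were measured, and late 0 rose and 15 fell, with 0 higher at an unadjusted p under 0.05 in limma and a median of -0.79, against 15.5% higher, 47.7% lower and -0.43 for all genes. After median-ratio rescaling 2 rose and 9 fell, against 825 and 816 of all 3147 genes. After quantile normalization 1 rose and 10 fell (701 and 977 of all genes). With the replicate number as a block 1 rose and 16 fell (585 and 1815 of all genes). Ddx21, a nucleolar helicase that has also been described as an RNA sensor, fell by 1.45 ± 0.26, Ddx56 by 1.39 ± 0.17 and Ddx18 by 1.33 ± 0.26, and all 3 kept their call after that rescaling. The most abundant, the translation helicase gene Eif4a1, stood at -0.45 ± 0.14 (adjusted p = 0.00936, and 0.789 after that rescaling).

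Partners of Zbp1 in cell death were measured although its own RNA was not. Of 11 listed genes 10 were measured, and late 4 rose and 2 fell with a median of -0.09, against 15.5%, 47.7% and -0.43 for all genes. Mlkl, which executes necroptosis, rose from 23.2 to 50.2 TPM in the late mock libraries to 151 to 190 TPM with LPS (log2 2.44 ± 0.14, limma adjusted p = 1.72e-10). Casp1, the inflammasome caspase, rose by 2.40 ± 0.13, and the most abundant gene, the inflammasome sensor Nlrp3, by 1.14 ± 0.13. Ripk3, the kinase that ZBP1 engages, fell by 1.2 ± 0.25 (adjusted p = 4.72e-04) and Casp6 by 1.57 ± 0.24. After median-ratio rescaling the counts were the same, while 825 of all 3147 genes rose and 816 fell.

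In resting cells all 7 genes had ribosome footprints. Mavs had the highest level at 26.1 and 26.8 TPM of the footprint table, and Eif2ak2 followed at 19.0 and 26.3 TPM, overlapping it. Adar stood at 15.9 and 16.3, Ddx58 at 14.8 and 14.2, Ifih1 at 12.3 and 15.5, Zbp1 at 13.4 and 11.3 and Dhx58 at 9.94 and 7.92 TPM. Of these, Adar lay below Eif2ak2 and above Ddx58 without overlap, and Dhx58 lay below Zbp1 without overlap, while Ddx58, Ifih1 and Zbp1 overlapped from one to the next. These levels were modest for the table: Mavs exceeded 47.3% of its 6250 genes, Zbp1 21.3% and Dhx58 12.7%. Zbp1 thus had footprints before any stimulus, at a level that overlapped that of Ifih1 and lay above that of Dhx58.

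Set against 0 h RNA, the genes differed in footprints per RNA. The RNA and footprint tables were normalized separately, so each library was centred on its median over the 2920 shared genes and no test was made. Ifih1 (log2 1.06), Dhx58 (1.04) and Mavs (0.98) had more footprints for their RNA than 87.6%, 87.1% and 85.2% of shared genes. Ddx58 (0.31) and Adar (0.11) were near the middle, above 57.8% and 49.2%. Eif2ak2 had the fewest, at -0.77, above 18.5%. Most of these RNAs were low at 0 h. Ranked from the lowest among all genes of the RNA table, Dhx58 stood at 1.59%, Ifih1 at 3.43% and Ddx58 at 10.2%. Mavs stood at 15.4%, Adar at 16.1% and Eif2ak2 at 48.8%. How far low RNA values raised the ratios was not tested. Without centring the values were 0.21 for Ifih1, 0.19 for Dhx58 and 0.13 for Mavs, and those of Ddx58 and Adar turned to -0.54 and -0.74. With 2 libraries of each kind the value of Mavs ran from 0.32 to 1.65 and that of Eif2ak2 from -1.48 to -0.05 between pairings of libraries. That of Dhx58 ran from 0.50 to 1.59 and that of Ifih1 from 0.78 to 1.35.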

How the data were processed

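The submitters' processing notes name Bowtie 0.12.7, RSEM 1.2.3 and build mm9 for the RNA libraries, whose values the authors deposited in TPM. Footprint reads were aligned with Bowtie2 and TopHat2, with no versions in those notes, and the footprint values were taken as TPM because each deposited column sums to 1000000. The 4 h samples' descriptions carry another number, while titles, time fields and table say 4. The 0 h columns are repeated under both arms and were identical. Rows with several names joined by semicolons were matched by any of them.

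A gene needed 1 TPM or more in 2 libraries or more, and all 3147 passed. limma 3.58.1 in R 4.3.3 was fitted to log2(TPM + 1) with 1 mean for each of 13 groups and a variance trend (13 residual degrees of freedom), and a call meant p under 0.05 after Benjamini-Hochberg adjustment across the table. Differences between replicates 1 and 2 correlated between LPS and mock at every time (r over genes 0.23 to 0.68). The labels do not say what a replicate number shares, and the main fit had no term for it. The main permutation likewise exchanged labels freely within a time. Standard errors, p-values and calls given without mention of the block therefore ignore any pairing by replicate number. Values with the replicate number as a block are given where they change a call. The fit and the permutation step were tested on simulated data with independent noise in each library. Those simulations do not address the correlation between arms by replicate number. The genes and lists were chosen with earlier results of these data known. Of each list, the 3 largest called late changes and the most abundant gene are named, and for each gene its 3 nearest by correlation; others are marked. One gene of a list is not reported here. The AANNGAAA motif was added after the promoter letters were seen. Alternatives were pseudocounts of 0.1 and 5, a mean of 10 TPM, no filter, no variance trend, median-ratio and quantile scaling, a replicate block, only the groups compared, and leaving out each library.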

Additional observations from a re-analysis of the deposited data

Results flagged for a closer look

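The LPS effect differed between the early and the late times, by a test of the difference itself, for 3 of the 6 genes with RNA. The late effect minus the early effect was 2.18 for Ddx58 (limma, adjusted p = 3.73e-07), 2.41 for Dhx58 (4.77e-06) and 1.59 for Adar (3.34e-04). All 3 were called in each of the 26 fits that left out 1 library and under every other setting tried.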

How the results depend on the processing

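Of 3360 values of the 6 genes recomputed under other settings, 3254 kept their direction and their side of the threshold, 64 lost a call, 24 gained one and 18 changed sign, of which 0 were called in either fit. The sign changes were in Ifih1 (late minus early 0.13, and 2 h to 4 h 0.14, after median-ratio rescaling), in Mavs (0.013 at 9 h and 0.21 at 12 h after quantile normalization), and in 14 fits without single libraries. Ranges of the latter were -0.26 to 0.051 for Ifih1 from 2 h to 4 h. For Mavs they were -1.28 to 0.44 at 12 h, -0.29 to 0.57 from 2 h to 4 h, -0.0090 to 0.44 from 4 h to 6 h, -0.10 to 1.62 from 6 h to 12 h, -0.27 to 1.45 for that change of the effect and -0.96 to 0.46 for mock against 0 h. They were -0.37 to 0.56 for Eif2ak2 and -0.13 to 0.21 for Adar in mock against 0 h, and -0.0021 to 0.29 for Adar from 4 h to 6 h. Of the counts of called genes, that at 1 h was 2 and not 1 with a replicate block, and 1 to 2 without single libraries. From 1 h to 2 h of LPS it was 2 and not 4 in a fit to only the groups compared. From 2 h to 4 h it was 4 and not 2 with the replicate block and 0 with only the groups compared. From 6 h to 12 h it was 1 and not 2 after quantile normalization, 0 with only the groups compared and 1 to 2 without single libraries. The change of the effect from 6 h to 12 h was called for 1 gene and not 0 with log2(TPM + 5) and with the replicate block, and for 0 to 1 without single libraries. Each time the gene was Ifih1. The number of pairs that differed was 13, 12 with the replicate block and 12 to 14 without single libraries. Of 32 counts over all genes, over 1.5 times more were called with the replicate block in 18 and fewer with only the groups compared in 18. Such moves were 8 up and 11 down after median-ratio rescaling, 1 up and 14 down after quantile normalization and 1 up and 3 down with log2(TPM + 5). At 1 h, 103 genes were called higher, 352 with the replicate block and 21 with only the groups compared. Beyond the calls given with the results, the replicate block changed no other call on the 6 genes. The cause of these moves was not tested, and depth is unknown in TPM. Without centring, footprints against RNA were 0.21 for Ifih1, 0.19 for Dhx58, 0.13 for Mavs, -0.54 for Ddx58, -0.74 for Adar and -1.62 for Eif2ak2.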
